A study of Mus musculus with 12 samples.

Results

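Interferon response genes and genes of the major histocompatibility complex (MHC) were followed across 3 groups of mouse pancreatic samples. The genes were chosen by symbol alone: the IFI, IFIT, IFITM, GBP, OAS, Mx, IRF and STAT families, viperin (Rsad2), all H2 genes, beta-2-microglobulin (B2m), the peptide transporters Tap1 and Tap2, and tapasin (Tapbp). This gave 88 genes of the 18194 with a probe set of their own, read by 147 probe sets. Each gene was represented by its brightest probe set over all 12 arrays. Of the 88 genes, 74 passed a filter on low values, which asked for a level above the 30th percentile of the array on at least 4 arrays, and only these were tested, among 14991 genes in all.

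RNA of 12 samples was hybridised to Affymetrix arrays, 4 per group with the letters A to D. Acini were exocrine cells studied directly after isolation. Ducts were organoids, which are 3-dimensional cultures in Matrigel, grown from handpicked fragments of native pancreatic duct. yDucts were organoids grown from acini of R26-rtTA; tetO-YAP S127A mice, in which doxycycline had switched on an activated form of the Hippo effector YAP, and they were later grown without doxycycline. S127A names a serine-to-alanine change that removes an inhibitory phosphorylation site of YAP, and rtTA, made from the ubiquitous R26 locus, is the doxycycline-dependent activator of the tetO promoter. The labels give no genotype, strain or age for Acini and Ducts, so that strain and group cannot be told apart for H2 genes, which are highly polymorphic. Both organoid groups grew in 100% Matrigel with the same medium (B27, N-acetylcysteine, gastrin, EGF, Noggin, FGF10, nicotinamide and R-Spondin1), while Acini were not cultured, so that culture and cell state cannot be told apart in comparisons with Acini. Acini were filtered but not sorted, and organoid lines could be picked as clones. The labels call the 4 arrays of a group biological replicates, and the paper's clustering legend treats each column as a separate biological sample. Neither says whether these samples came from separate animals or cultures. If they did not, p-values reflect the spread between arrays alone, which may be partly technical.

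Cells that sense viral nucleic acid release interferons, which bind receptors on the same and neighbouring cells and, through JAK kinases, STAT factors and IRF9, switch on a large set of antiviral genes. Interferon-induced proteins block viruses at entry (IFITM), translation (IFIT), RNA integrity (OAS) and budding or replication (Mx, viperin), and guanylate-binding proteins (GBP) attack pathogen vacuoles. MHC class I molecules, made of a heavy chain and B2m and loaded with peptides carried by TAP, display peptides on nearly all cells, whereas class II molecules are mainly made by dendritic cells, macrophages and B cells. In epithelia such as the pancreatic duct, class I and many interferon-induced genes have a basal level that interferon raises.

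All values below are log2 expression values, deposited as 1 value per probe set and array. A difference of 1 is a 2-fold change. Group levels are given as mean ± SD (n = 4) and differences as log2 ± the standard error (SE) of a model across all genes. Genes with an adjusted p under 0.05 count as called. Low readings cannot give a true fold, so a group averaging under its arrays' 30th percentile was set to that percentile and the fold is a bound. The 30th percentile lay between 3.64 and 3.79 on the Acini arrays and between 3.18 and 3.23 on the organoid arrays, and the array medians between 4.54 and 4.62 and between 4.36 and 4.40. Further scalings of the arrays were therefore tried, and they moved the median difference of all genes from 0.205 to between -0.176 and 0.415 for Ducts against Acini. Acinar enzymes and factors fell in both organoid groups (6 of 6 tested) and the duct keratins Krt7 and Krt19 rose, while Cftr and Sox9 did not pass the test.

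The promoters of the genes were inspected for the sites through which interferon acts. The RefSeq promoter table of build GRCm38.p6 held a window of 300 bases, from 250 before to 50 after the transcription start, for 69 of the 88 genes. The core of the interferon-stimulated response element (ISRE core), which is GAAA, any NN and GAAA again, was looked for on both strands, as were the core of the gamma-interferon-activated site, TTCNNNGAA, and the Y box of MHC promoters, CTGATTGG, which was added after the sequences had been seen. The ISRE core occurred in 21 of the 69 genes (30.4%) and in 3.99% of all 27025 genes with a window. TTCNNNGAA occurred in 13 (18.8%) and in 9.55% of all genes. The ISRE core was found in 4 of 4 guanylate-binding protein genes, 4 of 5 IFIT genes and 3 of 7 OAS genes, but in 0 of 8 class I heavy chain genes and 0 of 7 class II genes. CTGATTGG occurred in 4.70% of all genes, in 4 of the 7 class II genes and in 4 of the 8 class I heavy chain genes. These are matches of letters, not measured binding.

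The windows of genes on which the results turn follow: B2m (chr2:122147437-122147736, plus strand), which was higher in organoids, Ifit1 (chr19:34640639-34640938, plus), Rsad2 (chr12:26456403-26456702, minus) and Gbp2 (chr3:142620413-142620712, plus), which were lower in Ducts, Ifitm3 (chr7:141010695-141010994, minus), which separated the organoid groups, and H2-Aa (chr17:34287774-34288073, minus), the class II gene with the largest difference. They run 5′ to 3′ in the direction of the gene, from RefSeq GRCm38.p6, and capitals mark the matches. B2m, Rsad2 and Gbp2 held 1 ISRE core each and Ifit1 held 2, while the 2 cores of Ifitm3 lay in the first transcribed bases, and the second of them overlapped a TTCNNNGAA match. H2-Aa held none of these and 1 Y box.
B2m: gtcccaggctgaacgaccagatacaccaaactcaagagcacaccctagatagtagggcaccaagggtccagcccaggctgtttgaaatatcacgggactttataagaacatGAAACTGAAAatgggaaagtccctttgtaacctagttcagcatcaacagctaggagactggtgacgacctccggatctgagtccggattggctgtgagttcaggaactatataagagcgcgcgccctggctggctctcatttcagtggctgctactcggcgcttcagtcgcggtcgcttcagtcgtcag
Ifit1: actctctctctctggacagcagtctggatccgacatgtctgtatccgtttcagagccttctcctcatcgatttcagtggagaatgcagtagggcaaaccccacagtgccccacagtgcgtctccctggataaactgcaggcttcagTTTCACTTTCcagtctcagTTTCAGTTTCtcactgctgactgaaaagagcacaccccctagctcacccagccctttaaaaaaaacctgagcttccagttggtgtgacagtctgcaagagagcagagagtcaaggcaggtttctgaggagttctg
Rsad2: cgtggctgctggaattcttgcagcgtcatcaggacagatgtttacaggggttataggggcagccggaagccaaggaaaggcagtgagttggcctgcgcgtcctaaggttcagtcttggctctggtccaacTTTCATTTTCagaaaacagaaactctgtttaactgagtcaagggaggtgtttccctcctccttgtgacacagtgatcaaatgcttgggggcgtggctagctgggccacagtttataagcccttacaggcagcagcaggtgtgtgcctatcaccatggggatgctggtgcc
Gbp2: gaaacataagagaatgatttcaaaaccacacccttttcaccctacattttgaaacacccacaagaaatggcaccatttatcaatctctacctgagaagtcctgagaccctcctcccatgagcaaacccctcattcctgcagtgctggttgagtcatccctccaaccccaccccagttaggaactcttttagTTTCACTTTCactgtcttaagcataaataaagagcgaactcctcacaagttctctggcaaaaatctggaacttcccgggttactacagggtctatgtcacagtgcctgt
Ifitm3: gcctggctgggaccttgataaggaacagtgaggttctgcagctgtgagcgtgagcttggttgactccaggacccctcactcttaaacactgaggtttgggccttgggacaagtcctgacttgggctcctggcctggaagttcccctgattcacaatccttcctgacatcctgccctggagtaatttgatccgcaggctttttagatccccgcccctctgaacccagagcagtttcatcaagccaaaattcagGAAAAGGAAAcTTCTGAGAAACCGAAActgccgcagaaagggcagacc
H2-Aa: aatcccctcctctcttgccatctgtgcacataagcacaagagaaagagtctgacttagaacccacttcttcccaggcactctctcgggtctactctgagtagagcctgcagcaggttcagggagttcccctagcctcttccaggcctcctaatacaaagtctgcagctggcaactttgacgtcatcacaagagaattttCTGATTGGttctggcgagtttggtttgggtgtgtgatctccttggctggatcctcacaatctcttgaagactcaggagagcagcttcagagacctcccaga

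Against Acini, the interferon and MHC genes were called lower far more often than higher in both organoid groups. In Ducts, 37 of the 74 tested genes were lower and 7 were higher, with 30 not called. Across all genes tested, 75.7% were called in this comparison, 33.1% lower and 42.7% higher. In yDucts, 36 were lower, 11 higher and 27 not called, against 76.2% of all genes called, 32.6% lower and 43.6% higher. The median difference of the 74 genes was -0.66 in Ducts and -0.57 in yDucts, where that of all genes was 0.205 and 0.242. The groups did not overlap in 34 genes for Ducts and 49 for yDucts, against 64.5% and 71.7% of all genes. Both comparisons share the Acini arrays. Among the 58 genes whose Acini mean reached the Acini median, 29 were lower and 7 higher in Ducts, and 27 lower and 10 higher in yDucts. Of all 11729 such genes, 30.7% were lower and 47.1% higher in Ducts, and in yDucts 30% were lower and 47.7% higher. The 14 untested genes were near the low end of the scale, 5 of the 6 IFI200 genes and Mx1 among them.

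The share of calls that were to the higher side depended on the scaling, for these genes and for all genes. It was 15.9% in Ducts and 23.4% in yDucts as deposited, 6.67% and 13.3% after cyclic loess, and 25.6% and 31.9% after centring each array on its median. Among all genes it was 56.3% and 57.2% as deposited, 41.3% and 42.9% after cyclic loess, and 63.7% and 64.8% after centring. With every scaling, lower calls outnumbered higher ones among the interferon and MHC genes, 42 to 3 and 39 to 6 under cyclic loess and 29 to 10 and 32 to 15 after centring. Lower calls outnumbered higher ones among all genes too under cyclic loess (36.6% to 25.8% of genes in Ducts and 36.1% to 27.1% in yDucts) and quantile normalization (35.9% to 28.7% and 35.6% to 29.5%).

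**Figure D1:**
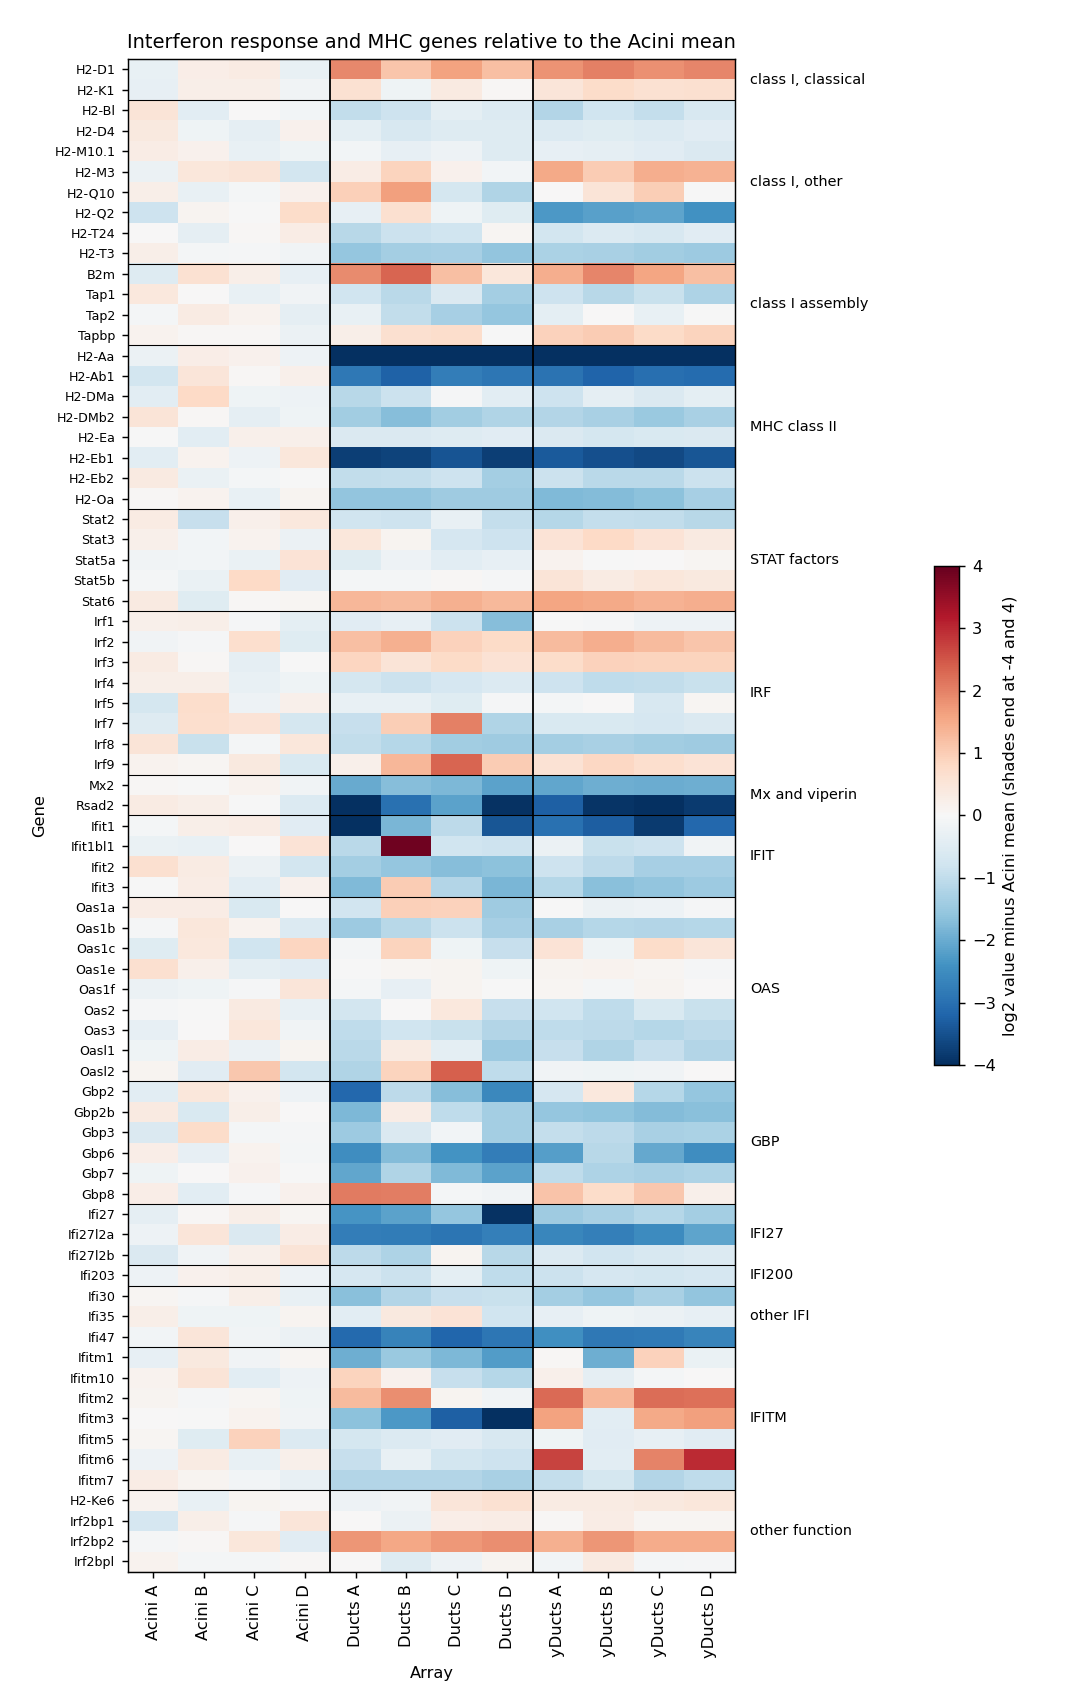
Levels of the 74 tested genes on each of the 12 arrays (columns), as log2 value minus the Acini mean of the gene, grouped by role (rows); blue is lower and red higher than Acini, and shades end at -4 and 4. The class II genes H2-Aa, H2-Ab1 and H2-Eb1 were low on all 8 organoid arrays, while several interferon-induced genes, such as Irf7 and Oasl2, were high on Ducts arrays B and C.

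The plot of calls by role shows where the lower calls lay. Of all genes, 33.1% were lower in Ducts and 32.6% in yDucts. In both comparisons 7 of 8 tested class II genes were lower, as were both tested genes of the Mx and viperin group. Of the 6 guanylate-binding protein genes, 5 were lower in Ducts and 4 in yDucts. Higher calls were found among class I heavy chains and assembly genes, IRF and STAT factors and, in yDucts, IFITM genes. The class II count was 6 or 7 and the Mx and viperin count 2 under every scaling, whereas no class I assembly gene and no IRF was higher in Ducts after quantile normalization or cyclic loess.

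**Figure D2:**
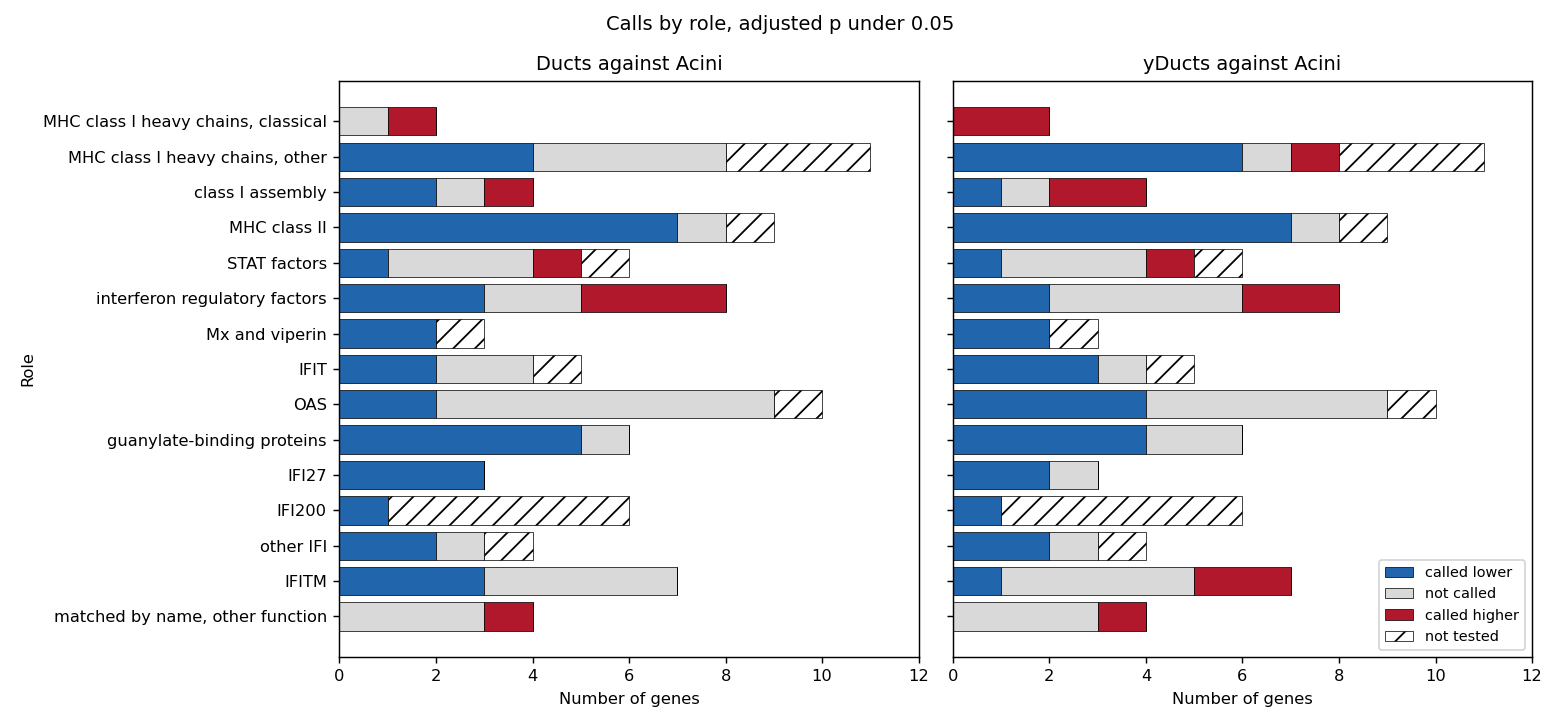
Number of genes in each role (horizontal bars) called lower, not called, called higher (adjusted p under 0.05) or not tested, for Ducts against Acini (left) and yDucts against Acini (right). All 7 calls among tested class II genes were to the lower side in each comparison, and 9 OAS genes gave 2 lower calls in Ducts and 4 in yDucts.

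Of the classical class I genes, B2m and H2-D1 were called higher in both organoid groups and H2-K1 in yDucts, calls that depended on the scaling or on the probe set. B2m, the light chain of every class I molecule, was 9.40, 10.52, 10.13 and 9.56 in Acini, 11.80, 12.23, 11.12 and 10.35 in Ducts, and 11.37, 11.84, 11.49 and 11.11 in yDucts. The highest Acini array exceeded the lowest Ducts array, and the yDucts arrays lay above all Acini arrays. B2m rose by 1.47 ± 0.37 in Ducts (2.78-fold, adjusted p = 0.00267) and by 1.55 ± 0.37 in yDucts (2.93-fold, adjusted p = 0.00187). After quantile normalization or cyclic loess the differences were 0.42 to 0.83 and were not called (adjusted p from 0.0652 to 0.327).

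H2-D1, a classical class I heavy chain, was 9.77, 10.34, 10.41 and 9.76 in Acini, 12.00, 11.19, 11.69 and 11.26 in Ducts, and 11.86, 12.07, 11.89 and 12.02 in yDucts. No organoid array overlapped with Acini, and the differences were 1.47 ± 0.21 (adjusted p = 3.86e-05) and 1.89 ± 0.21 (adjusted p = 4.09e-06). The gene has 9 probe sets, most of a kind whose probes may also bind related transcripts, and they did not move alike. A nearly as bright probe set rose by 1.385 in Ducts and 1.79 in yDucts, and dimmer ones moved both ways. Among the dimmer ones, rises reached 1.24 in Ducts and 1.505 in yDucts, and falls reached 2.24 and 2.25. With the mean of all its probe sets H2-D1 was not called (0.01 and 0.24). The direction for H2-D1 therefore depended on the probe set, and under cyclic loess its Ducts difference of 0.43 was not called (adjusted p = 0.0664).

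H2-K1, the other classical heavy chain on the array, was 10.64, 11.19, 11.19 and 10.83 in Acini, 11.57, 10.80, 11.31 and 11.00 in Ducts and 11.45, 11.70, 11.58 and 11.61 in yDucts. Ducts overlapped with Acini and yDucts did not. It was called higher in yDucts (0.62 ± 0.19, adjusted p = 0.00883) and not in Ducts (0.21 ± 0.19, adjusted p = 0.327), and under cyclic loess the differences turned to -0.40 in yDucts and -0.82 in Ducts (adjusted p = 0.0539 and 0.000941). Quantile normalization gave -0.012 in yDucts and -0.42 in Ducts, neither of them called. The missing Ducts call depended on the probe set. With the probe set of largest interquartile range H2-K1 was called higher in Ducts (1.29, adjusted p = 0.000218). It was also called there with the mean of its probe sets (0.41, adjusted p = 0.029), whereas a less bright probe set read -0.30 in Ducts and -0.05 in yDucts.

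The peptide-loading genes were divided, with Tap1 lower in both groups, Tap2 lower in Ducts and tapasin higher in yDucts. Tap1, a subunit of the transporter that carries peptides into the endoplasmic reticulum, was 7.32, 6.93, 6.62 and 6.76 in Acini, 6.11, 5.84, 6.32 and 5.55 in Ducts and 6.08, 5.80, 6.02 and 5.68 in yDucts. The groups did not overlap with Acini, and Tap1 fell by 0.95 ± 0.20 in Ducts (adjusted p = 0.000795) and by 1.01 ± 0.20 in yDucts (adjusted p = 0.000492). Its partner Tap2 fell in Ducts by 1.05 ± 0.25 (adjusted p = 0.00198), and in yDucts, where the difference was -0.17 ± 0.25, it was not called as deposited, though it was after cyclic loess (-0.72, adjusted p = 0.022) and quantile normalization (-0.89, adjusted p = 0.00456). Tapasin, which bridges TAP and the empty class I molecule, was 9.02 ± 0.17 in Acini, 9.41 ± 0.35 in Ducts and 9.91 ± 0.09 in yDucts. It was called higher in yDucts (0.90 ± 0.17, adjusted p = 0.00045), and its sign turned under cyclic loess in both comparisons and under quantile normalization in Ducts.

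Of the 8 other tested class I genes, 4 were lower in Ducts, and 6 were lower and 1 higher in yDucts. Among all genes, 33.1% were lower in Ducts, and 32.6% were lower and 43.6% higher in yDucts. H2-T3, a nonclassical thymus leukemia antigen, fell by 1.45 ± 0.13 in Ducts and by 1.35 ± 0.13 in yDucts (adjusted p = 7.69e-07 and 1.38e-06). H2-Bl was lower by 0.69 ± 0.21 and 0.89 ± 0.21 as deposited (adjusted p = 0.0089 and 0.00172). The Ducts call was lost under all 3 other scalings (-0.17 to -0.48, adjusted p from 0.0539 to 0.494) and the yDucts call under cyclic loess (-0.35, adjusted p = 0.151). H2-M3, which presents bacterial formylated peptides, was 5.52 ± 0.59 in Acini, 5.83 ± 0.43 in Ducts and 6.86 ± 0.22 in yDucts, and was called higher in yDucts and not in Ducts (1.34 ± 0.28, adjusted p = 0.000823). H2-Q2, a Qa family gene, separated yDucts from the other groups. It was 4.18, 5.10, 4.97 and 5.73 in Acini, 4.67, 5.62, 4.82 and 4.52 in Ducts, and 2.70, 2.81, 2.90 and 2.58 in yDucts. All yDucts arrays lay below the 30th percentile of their array, and H2-Q2 was at least 3.28-fold lower in yDucts than in Ducts (-2.16 ± 0.30, adjusted p = 0.00144).

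**Figure D3:**
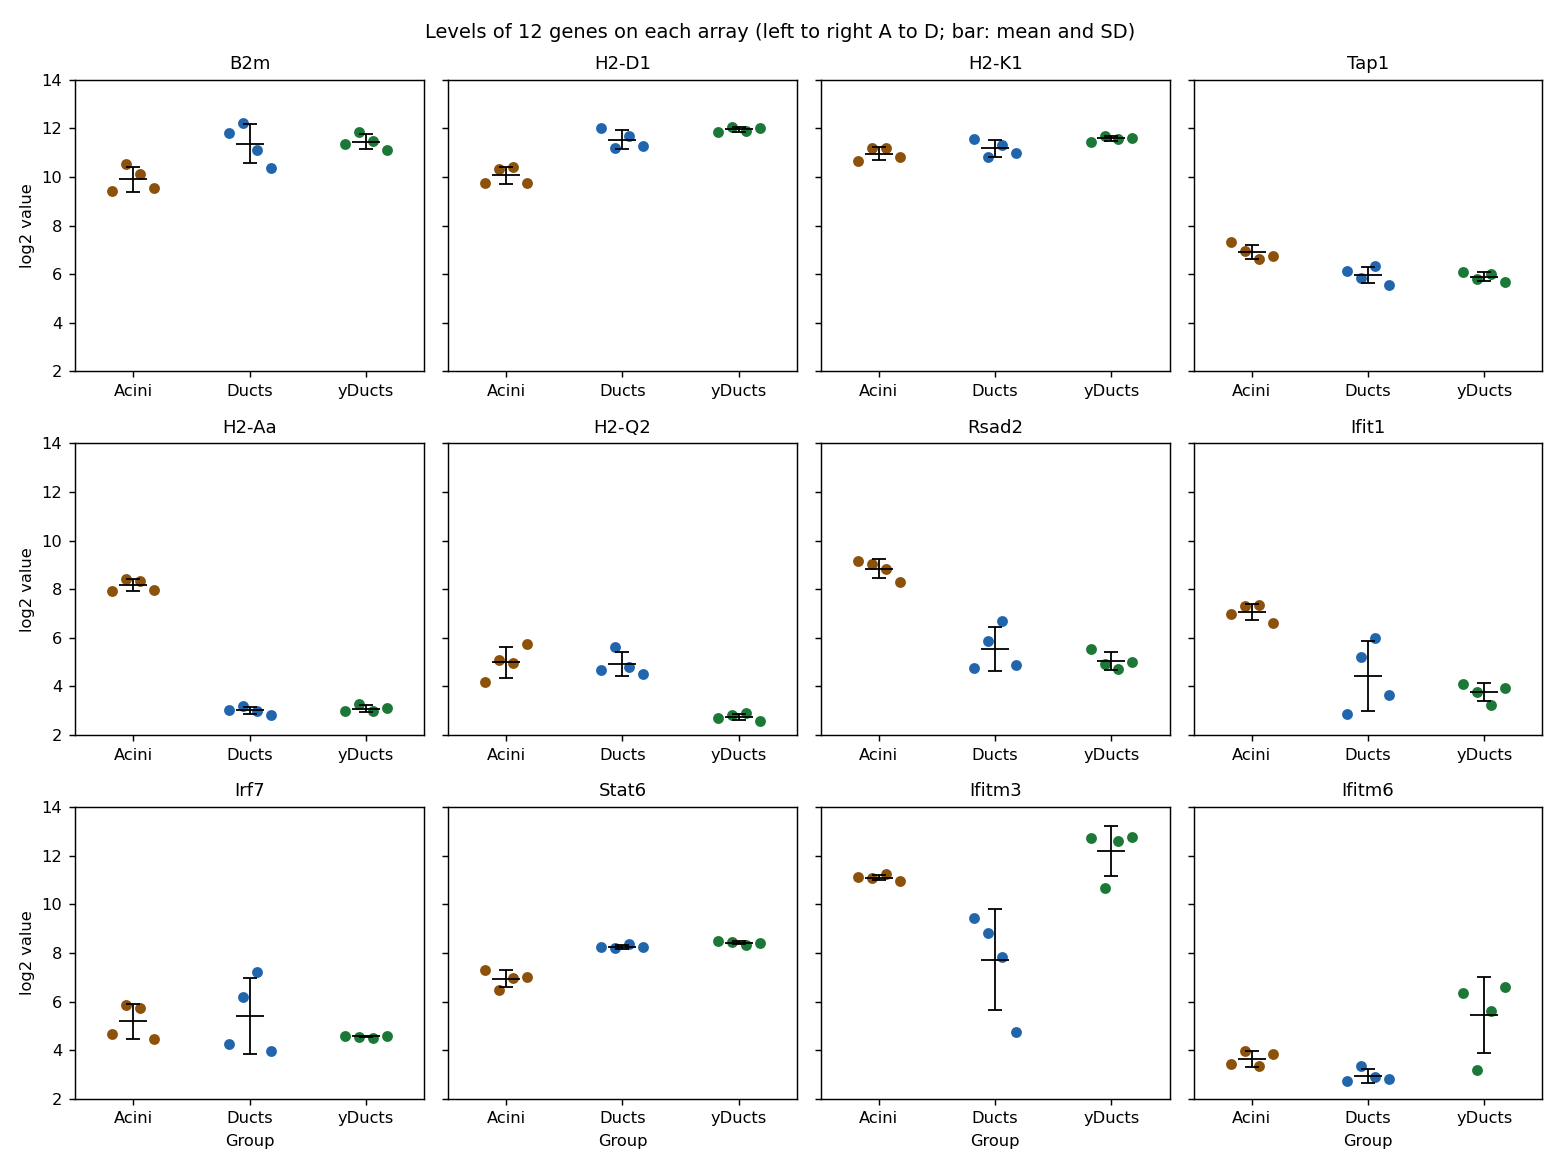
Log2 values of 12 genes on every array, 4 points per group from A to D, with horizontal marks at the mean and bars of 1 SD; each panel has the same axis. H2-Aa fell from a mean of 8.16 in Acini to about the lower end of the scale in both organoid groups, and Ifitm3 ranged from 4.76 to 9.46 in Ducts but from 10.67 to 12.76 in yDucts.

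With the brightest probe set of each gene, the largest differences of these genes were those of the class II gene H2-Aa. H2-Aa, the alpha chain of I-A, was 7.92, 8.41, 8.33 and 7.97 in Acini, 3.01, 3.20, 3.0 and 2.83 in Ducts, and 2.97, 3.28, 2.97 and 3.13 in yDucts. The Acini arrays stood apart from all 8 organoid arrays, whose group means lay below the 30th percentile. H2-Aa was at least 30.9-fold lower in Ducts (adjusted p = 2.4e-11) and at least 30.7-fold lower in yDucts (adjusted p = 2.9e-11). These bounds hold for the probe set used. Other probe sets of H2-Aa above the filter read -2.40 and -1.835 in Ducts and -2.41 and -1.89 in yDucts. Every alternative called H2-Aa lower, the smallest differences being -2.58 in Ducts and -2.57 in yDucts.

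H2-Eb1, the beta chain of I-E, fell from 7.79 ± 0.39 to 4.11 ± 0.14 in Ducts and 4.32 ± 0.12 in yDucts (12.8- and 11.1-fold, adjusted p = 3.32e-09 and 5.82e-09). H2-Ab1, the beta chain of I-A, fell 7.66- and 8.37-fold (adjusted p = 1.5e-07 and 1.07e-07). H2-Oa, a subunit of the class II peptide editor H2-O, was at least 2.44- and 2.47-fold lower. It passed the filter on its 4 Acini arrays alone, so that a call could only be to the lower side, and without it 6 of 7 class II genes were lower. The exception was H2-DMa, of the peptide exchanger H2-DM, with 5.30 ± 0.55 in Acini, 4.69 ± 0.48 in Ducts and 4.77 ± 0.21 in yDucts (adjusted p = 0.0619 and 0.0987). The partners of class II moved with it. Cd74, the invariant chain that guides class II molecules, fell by 3.28 ± 0.21 and 3.16 ± 0.21 (adjusted p = 2.69e-08 and 3.73e-08), and cathepsin S (Ctss), which trims it, was at least 5.73- and 5.79-fold lower (adjusted p = 3.57e-09 and 3.1e-09).

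Markers of leukocytes fell together with these genes. Of 11 tested immune markers 9 were lower in each organoid group, where 33.1% of all genes were lower in Ducts and 32.6% in yDucts. The summed level of the immune markers was 9.10 to 9.80 in Acini, 7.51 to 8.41 in Ducts and 7.58 to 7.63 in yDucts. The pan-leukocyte gene Ptprc and the complement genes C1qa and C1qb had organoid means below the 30th percentile, and Lyz2 of macrophages fell 11.3- and 11.2-fold. The macrophage gene Cd68 was called higher in both, and Cd52 was not called. All 6 endothelial and all 6 stromal markers were lower too, with summed levels of 9.57 to 10.28 and 11.74 to 12.65 in Acini against at most 6.25 and 6.24 in organoids. The part of these cells in the class II result was not tested. In such bulk samples, fewer cells of a type and less RNA per cell cannot be told apart.

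No gene of the Mx, IFIT, OAS, GBP, IFI27, IFI200 or other IFI families was called higher in either organoid group as deposited, and many were lower, with uneven levels in Ducts. Other scalings called 2 of them higher, Gbp8, which passed the filter on organoid arrays alone and could only be called higher (1.53 in Ducts and 1.36 in yDucts under cyclic loess), and Oas1f (0.46 and 0.59 under cyclic loess, adjusted p = 0.0283 and 0.0078). Viperin (Rsad2), which makes a chain-terminating nucleotide, was 9.18, 9.06, 8.83 and 8.29 in Acini, 4.75, 5.86, 6.69 and 4.90 in Ducts and 5.56, 4.91, 4.72 and 5.02 in yDucts. All organoid arrays were below all Acini arrays, and Rsad2 fell 9.78-fold in Ducts (-3.29 ± 0.38, adjusted p = 5.24e-06) and 13.8-fold in yDucts (-3.79 ± 0.38, adjusted p = 1.47e-06). Its other probe sets moved the same way.

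Ifit1, which binds viral RNA caps, was 6.99, 7.31, 7.35 and 6.60 in Acini, 2.88, 5.22, 6.0 and 3.63 in Ducts, and 4.09, 3.76, 3.24 and 3.93 in yDucts. It was lower on every organoid array than on any Acini array, by 2.63 ± 0.53 (adjusted p = 0.000619) and 3.31 ± 0.53 (adjusted p = 9.74e-05). Ifit2 was lower in both groups (at least 2.50-fold and 2.20-fold, adjusted p = 0.000105 and 0.00128), in yDucts with no call under cyclic loess (-0.56, adjusted p = 0.0656). Ifit3 was called in yDucts (-1.47 ± 0.49, adjusted p = 0.0157) and not in Ducts (-0.94 ± 0.49, adjusted p = 0.0991), where array B read 6.84 and the others 3.99 to 4.64 and without array B it was called there (-1.59, adjusted p = 4.09e-05), as it was under quantile normalization (-1.34, adjusted p = 0.0213).

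Mx2, an antiviral GTPase, fell by 1.92 ± 0.13 and 2.0 ± 0.13 (adjusted p = 7.45e-08 and 5.13e-08). Mx1 was not tested, with group means below the 30th percentile. Of the GBP genes, Gbp6 fell 5.12- and 3.90-fold and Gbp7 3.46- and 2.29-fold. Gbp2b was lower in both as well, by 0.97 ± 0.36 and at least 2.58-fold (adjusted p = 0.0265 and 0.00115), but the Ducts call was lost under all 3 other scalings (-0.42 to -0.76, adjusted p from 0.0745 to 0.338) and on leaving out any of 6 single arrays of Acini or Ducts. Gbp2 was lower in Ducts (-2.12 ± 0.46, adjusted p = 0.0011) and not called in yDucts (-0.74 ± 0.46, adjusted p = 0.161), where quantile normalization gave -1.37 (adjusted p = 0.0127). Its other probe set read -1.345 in Ducts and, with the opposite sign, 0.325 in yDucts.

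Ifi47, an immunity-related GTPase, was 7.38 ± 0.33 in Acini, 4.41 ± 0.23 in Ducts and 4.68 ± 0.19 in yDucts, 7.82- and 6.48-fold lower (adjusted p = 2.76e-08 and 6.33e-08). Ifi27l2a was at least 5.35- and 5.12-fold lower. Ifi27l2b was lower in Ducts (-0.81 ± 0.29, adjusted p = 0.0227) and not called in yDucts (-0.63 ± 0.29, adjusted p = 0.0666). Centring ended the Ducts call (adjusted p = 0.0804), as did weighting arrays by their quality (-0.35, adjusted p = 0.445). The call was also lost on leaving out Acini array C or D, or Ducts array A, B or D. Under quantile normalization and cyclic loess the gene was called in yDucts too (-1.02 and -0.80). Ifi203, the sole tested gene of the DNA-binding IFI200 family, fell by 0.73 ± 0.17 in each (adjusted p = 0.00138 and 0.00147), whereas Ifi35 was called in neither as deposited (-0.07 ± 0.26 and -0.27 ± 0.26). Ifi35 was lower in both under quantile normalization (-0.90 and -1.10, adjusted p = 0.012 and 0.00365) and cyclic loess (-1.20 and -1.39, adjusted p = 0.00238 and 0.0008). Ifi27 fell by 2.49 ± 0.38 and 1.30 ± 0.38 (adjusted p = 6.4e-05 and 0.00758), and Ifi30, a lysosomal thiol reductase that prepares antigens, by 1.17 ± 0.19 and 1.44 ± 0.19 (adjusted p = 8.98e-05 and 1.49e-05). Oas1b and Oas3, of the family that activates RNase L, were lower in both groups, by 1.19 and 0.97 in Ducts and by 1.18 and 1.07 in yDucts, Oas3 in Ducts with no call under cyclic loess (-0.42, adjusted p = 0.0654). Oas2 and Oasl1 passed the test in yDucts (-0.83 ± 0.26 and -1.05 ± 0.31, adjusted p = 0.0119 and 0.00734) and not in Ducts, where both were called lower under quantile normalization (-0.86 and -1.34) and cyclic loess (-0.71 and -1.22). The other 5 OAS genes were called in neither group as deposited.

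The transcription factors were divided. Stat6, which serves interleukin-4 signals, was 7.30, 6.46, 6.97 and 7.02 in Acini, 8.26, 8.19, 8.37 and 8.23 in Ducts and 8.50, 8.46, 8.34 and 8.40 in yDucts. The groups did not overlap with Acini, and Stat6 rose by 1.33 ± 0.17 and 1.49 ± 0.17 (adjusted p = 1.1e-05 and 3.87e-06), 0.26 and 0.43 under cyclic loess, which were not called. Stat3 and Stat5b were called in neither group as deposited (adjusted p from 0.0585 to 0.883). Both were higher in yDucts after centring (0.785 and 0.63, adjusted p = 0.0133 and 0.0236), and Stat3 was lower in Ducts under quantile normalization and cyclic loess (-1.10 and -1.35, adjusted p = 0.00268 and 0.000682). Irf2, a factor that competes with IRF1, rose by 1.07 ± 0.23 and 1.27 ± 0.23 (adjusted p = 0.000936 and 0.000245), with the same loss of call under cyclic loess (0.31 and 0.51). Irf3, which is activated by sensors of viral nucleic acid, was 0.68 ± 0.16 and 0.86 ± 0.16 higher (adjusted p = 0.00156 and 0.00027) as deposited, and its sign turned under quantile normalization and cyclic loess.

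Irf8, a factor of myeloid and B cells, fell by 1.23 ± 0.26 and 1.37 ± 0.26 (adjusted p = 0.000835 and 0.000372). Irf4, of lymphocytes, fell by 0.70 ± 0.15 and 0.93 ± 0.15 (adjusted p = 0.00103 and 0.000111), the Ducts difference being -0.15 and not called under cyclic loess (adjusted p = 0.389). Irf4 read near the low end of the scale, and all its yDucts arrays lay below their 30th percentile. Another probe set of Irf4 read -0.31 in Ducts and 0.0025 in yDucts. Stat2, the partner of IRF9, was lower as well (-0.72 ± 0.26 and -1.05 ± 0.26, adjusted p = 0.0238 and 0.00267), but another probe set of the gene moved the opposite way, by 1.02 and 0.70, and with the mean of both the differences were 0.15 and -0.18 and were not called. Irf1, an early interferon-gamma target, was lower in Ducts (-0.84 ± 0.26, adjusted p = 0.00998) and not called in yDucts as deposited (-0.12 ± 0.26, adjusted p = 0.679). Quantile normalization and cyclic loess gave -1.01 and -1.20 in yDucts, which were called (adjusted p = 0.00365 and 0.00184), and without Ducts arrays C and D the Ducts difference was -0.40 and was not called (adjusted p = 0.0922). Irf9 was higher in Ducts as deposited (1.22 ± 0.35, adjusted p = 0.00692). After quantile normalization it stood at 0.46 and after cyclic loess at 0.33, neither of them called (adjusted p = 0.279 and 0.426), and at 0.61 without Ducts arrays B and C, an alternative added after the data were seen (adjusted p = 0.0766).

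Between the organoid groups few of these genes differed. Ifitm3 and Ifitm6 were higher and H2-Q2 lower in yDucts than in Ducts, 3 of 74 genes (4.05%), where 3.14% of all genes were called, 2.15% higher and 0.987% lower. The count was 7 without Ducts array B, 11 without Ducts arrays A and B, and 35 when arrays were weighted by their quality, where 5.59%, 14.5% and 41.2% of all genes were called. The median difference was 0.08 for these genes and -0.002 for all genes.

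Ifitm3, a membrane protein of endosomes that stops viral entry, was 11.11, 11.10, 11.24 and 10.98 in Acini, 9.46, 8.82, 7.83 and 4.76 in Ducts and 12.73, 10.67, 12.61 and 12.76 in yDucts. All Ducts arrays read below the other groups, and array D far below the other Ducts arrays. Ifitm3 was 22.2-fold higher in yDucts than in Ducts (4.47 ± 0.80, adjusted p = 0.00804) and 10.5-fold lower in Ducts than in Acini (-3.39 ± 0.80, adjusted p = 0.00196), and the difference of yDucts from Acini was not called (1.09 ± 0.80, adjusted p = 0.232). Without Ducts arrays C and D the difference between the organoid groups was 3.05 (adjusted p = 0.00738), and without A and B it was 5.90 (adjusted p = 0.000244).

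Ifitm6 was 3.42, 3.97, 3.33 and 3.83 in Acini, 2.72, 3.35, 2.91 and 2.80 in Ducts, and 6.34, 3.20, 5.62 and 6.62 in yDucts. yDucts array B read like the other groups, and the remaining yDucts arrays lay above all of them. Ifitm6 was at least 4.59-fold higher in yDucts than in Ducts (2.50 ± 0.56, adjusted p = 0.03), a call that was lost on leaving out any of 6 single arrays of Ducts or yDucts (adjusted p = 0.114 without yDucts array A) and with the array letter as a block (adjusted p = 0.0564).

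The other IFITM genes were not called between the organoids. Ifitm1 was 6.53 ± 0.31 in Acini, 4.65 ± 0.31 in Ducts and 6.21 ± 1.20 in yDucts, and fell in Ducts against Acini (-1.87 ± 0.45, adjusted p = 0.00222). Between the organoid groups it differed by 1.56 ± 0.45 (adjusted p = 0.095). On yDucts array B it read 4.58, below the 6.25 to 7.45 of the other yDucts arrays, and without this array the difference of 2.10 was called (adjusted p = 0.00177). Ifitm2 was 8.84 ± 0.13, 9.62 ± 0.94 and 10.85 ± 0.45, and rose 4.03-fold in yDucts against Acini (adjusted p = 0.000339), where cyclic loess gave 0.91 and no call (adjusted p = 0.0601). yDucts array B was the lowest of its group for Ifitm1, Ifitm2, Ifitm3 and Ifitm6.

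The interferon and MHC genes varied more among the Ducts arrays than genes at large. The median SD of the 74 genes was 0.337 in Ducts and 0.133 in yDucts, where all genes gave 0.229 and 0.137. A range of 2 or more among the 4 Ducts arrays was seen in 14 of the 74 genes (18.9%) and in 5.52% of all genes, in yDucts in 3 (4.05%) and 0.947%, and in Acini in 0 and 2.17%. Of the 14, 6 were highest on Ducts array B, 5 on C and 3 on A, and 8 were lowest on D and 6 on A. These 14 genes were picked by their spread, so that their values are a description.

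Irf7, the IRF that amplifies interferon production, was 4.27, 6.17, 7.21 and 3.98 in Ducts, against 4.59, 4.56, 4.52 and 4.60 in yDucts. Its difference between Ducts and Acini was 0.22 and not called, and without Ducts arrays B and C it turned to -1.06 (adjusted p = 0.0203). Oasl2, an OAS-like protein, was 2.93, 5.04, 6.52 and 3.13 in Ducts and 3.96 to 4.15 in yDucts. Oas1a was 6.09, 7.81, 7.77 and 5.44 in Ducts and 6.62 to 6.83 in yDucts. In each of these genes Ducts arrays B and C lay above, and A and D below, the yDucts arrays.

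Ifit1bl1 was 7.81 on Ducts array B and 2.86 to 3.13 on the others. H2-Q10 and Gbp8 instead were high on A and B, at 5.34 and 6.02 and at 5.25 and 5.19, and low on C and D, at 3.70 and 3.18 and at 3.08 and 3.03. Genes of the interferon-induced list that the name rule had not taken varied among the Ducts arrays too, with a Ducts range of 2 or more in 10 of 24 and a yDucts range of 2 or more in 0 of 24. Xaf1, a proapoptotic factor, was 5.21, 7.14, 9.11 and 5.62 in Ducts, and Usp18, which removes ISG15 and restrains the interferon receptor, was 2.84, 4.69, 7.42 and 3.45. Both were high on the arrays on which Irf7 was high. Duct markers also varied there, with Car2 at 10.70, 11.78, 6.51 and 6.04 and Cftr at 3.57, 6.61, 2.23 and 2.38, and of the 11 tested immune markers 2 had a Ducts range of 2 or more, Cd52 at 2.93, 6.38, 2.54 and 3.03 and Cd68 at 5.17, 6.57, 4.18 and 4.17. The defining leukocyte gene Ptprc was 2.30 to 2.65 on all Ducts arrays. The part of these differences in the spread was not tested.

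**Figure D4:**
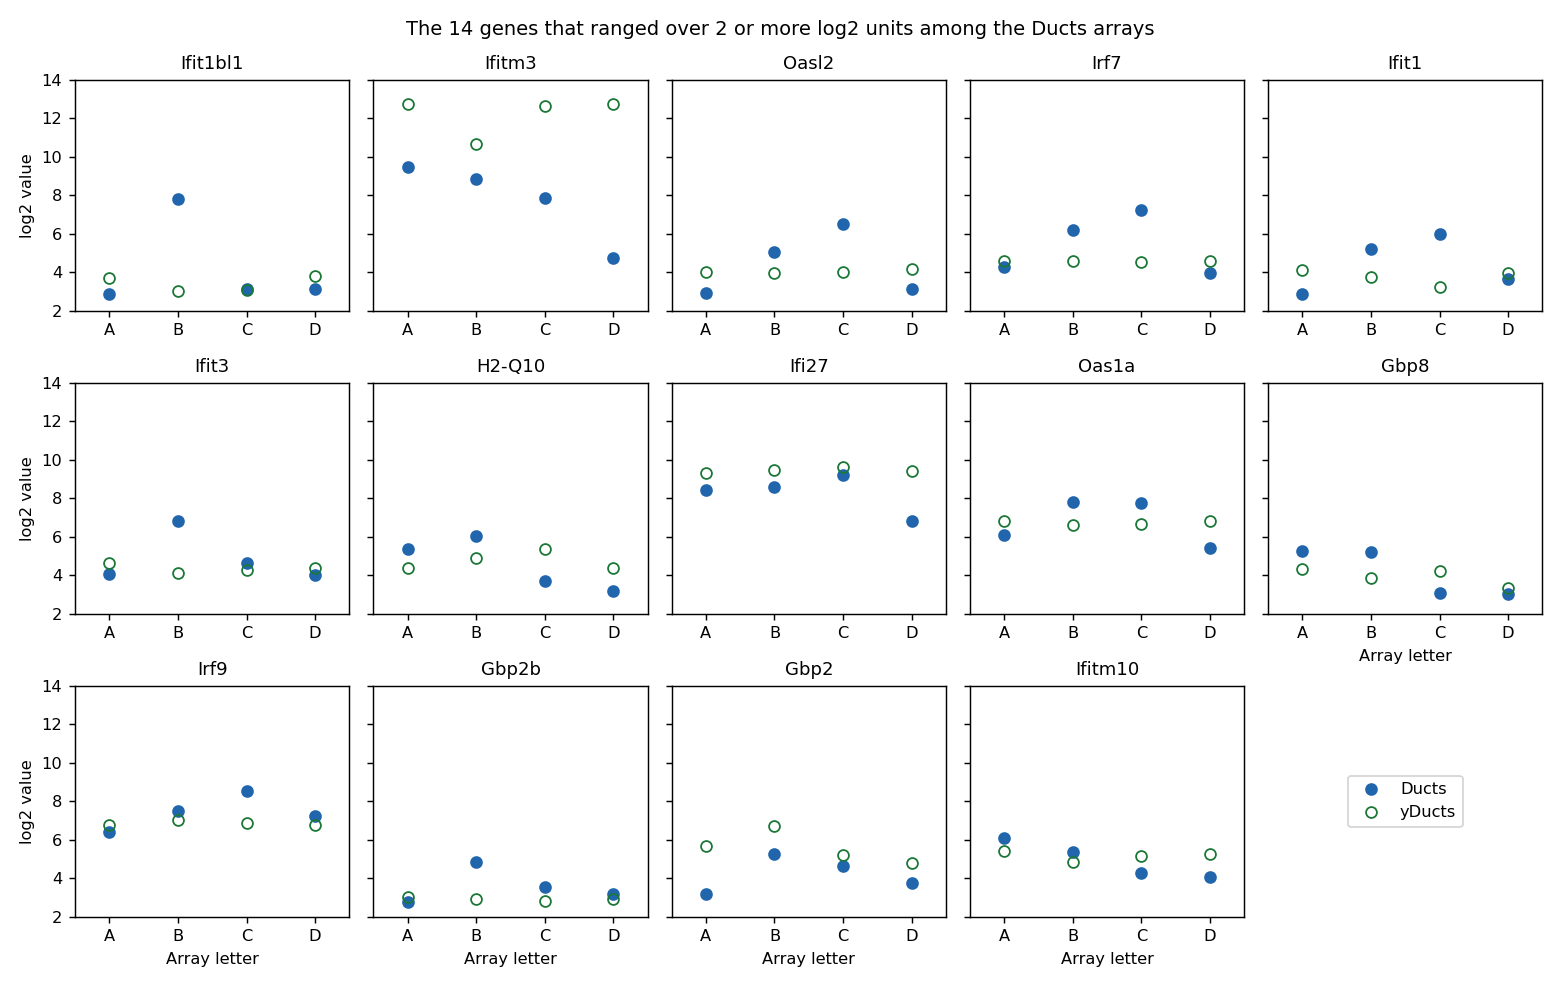
Log2 values by array letter for Ducts (filled) and yDucts (open). Shown are the 14 genes that ranged over 2 or more units among the Ducts arrays. The labels do not say whether the letters pair the groups. Irf7, Oasl2 and Ifit1 were high on Ducts arrays B and C, whereas H2-Q10 and Gbp8 were high on A and B.

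Several genes upstream of the response were higher in organoids. Of 9 interferon receptor and kinase genes, 7 were higher in each organoid group and 0 were lower as deposited, where 42.7% and 43.6% of all genes were higher, with median differences of 1.36 in Ducts and 1.80 in yDucts. Under cyclic loess 4 were higher and 2 lower in Ducts, and 3 higher and 1 lower in yDucts. Ifnar1, Ifngr1 and Ifngr2 were higher in both groups under every scaling. Ifngr2, a chain of the interferon-gamma receptor, was 5.76, 5.71, 6.07 and 6.01 in Acini, 8.74, 9.38, 7.84 and 7.54 in Ducts and 9.59, 9.59, 9.34 and 9.31 in yDucts. The groups did not overlap with Acini, and Ifngr2 rose 5.61- and 11.9-fold (adjusted p = 1.4e-05 and 5.92e-07). Ifngr1, the ligand-binding chain, rose 6.67- and 7.39-fold, and Ifnar1, of the type I receptor, 4.23- and 4.33-fold. The kinases Jak1 and Tyk2 were called in neither group as deposited and read lower in Ducts under cyclic loess (-1.02 and -0.86, adjusted p = 0.00881 and 0.00376), Tyk2 also in yDucts (-0.95, adjusted p = 0.00191). Ifnlr1, the receptor of type III interferons, was higher in both organoid groups, in yDucts with no call under cyclic loess (-0.056, adjusted p = 0.787), and lower in yDucts than in Ducts (-0.84 ± 0.15, adjusted p = 0.0093).

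Of 14 tested sensor and signalling genes, 4 were higher and 5 lower in Ducts, and 4 higher and 4 lower in yDucts (2 and 6, and 3 and 5, under cyclic loess). Of all genes as deposited, 42.7% were higher and 33.1% lower in Ducts, and 43.6% and 32.6% in yDucts. The median difference of the 14 genes was -0.354 in Ducts and -0.152 in yDucts. Sting1, the adaptor of cytosolic DNA sensing, was 4.71 ± 0.45 in Acini, 7.14 ± 0.53 in Ducts and 8.69 ± 0.19 in yDucts, and rose by 2.43 ± 0.27 and 3.98 ± 0.27 (adjusted p = 3.93e-06 and 5.28e-08). It was higher in yDucts than in Ducts as well (1.55 ± 0.27, adjusted p = 0.00678), a call lost without Ducts arrays C and D (1.17, adjusted p = 0.0684). Tlr3, the endosomal sensor of double-stranded RNA, rose by 3.65 ± 0.20 and 2.78 ± 0.20 (adjusted p = 8.14e-09 and 8.5e-08), and was lower in yDucts than in Ducts (-0.87 ± 0.20, adjusted p = 0.033), a call lost on leaving out any of 7 single arrays of Ducts or yDucts. The kinase Ikbke rose by 1.65 ± 0.29 and 1.89 ± 0.29, in Ducts with no call under cyclic loess (0.67, adjusted p = 0.0624). Ticam1, the adaptor of Tlr3, was lower in both groups under every scaling. Dhx58, Tlr7 and Zbp1 were lower in both as deposited, and none of these 3 was called in either under cyclic loess.

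Of the 24 tested interferon-induced genes outside the name rule, 3 were higher and 7 lower in Ducts, and 6 higher and 7 lower in yDucts. Among all genes as deposited, 42.7% were higher and 33.1% lower in Ducts, and 43.6% and 32.6% in yDucts. The median difference of the 24 genes was 0.064 in Ducts and 0.045 in yDucts. Single differences ran from -2.60 to 1.24 in Ducts and from -3.19 to 1.53 in yDucts. Cyclic loess gave 0 higher and 10 lower in Ducts, and 1 higher and 11 lower in yDucts. Cxcl10, a chemokine that draws T cells, fell by 2.60 ± 0.41 and 3.19 ± 0.41 (adjusted p = 7.52e-05 and 1.28e-05). Trim30a fell by 1.85 ± 0.35 and 2.27 ± 0.35, and Igtp, an immunity-related GTPase, by 1.85 ± 0.30 and 1.25 ± 0.30.

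Among 9 tested immunoproteasome and peptide-handling genes, 4 were higher and 2 lower in Ducts, and 6 higher and 1 lower in yDucts. Under cyclic loess these counts were 2 and 2, and 3 and 2. The shares of all genes as deposited were 42.7% higher and 33.1% lower in Ducts, and 43.6% and 32.6% in yDucts. Psmb10, a catalytic subunit of the immunoproteasome, was 10.63 ± 0.06 in Acini, 6.55 ± 0.35 in Ducts and 7.44 ± 0.09 in yDucts, 16.9- and 9.14-fold lower (adjusted p = 4.92e-10 and 5.01e-09), and was higher in yDucts than in Ducts (0.89 ± 0.16, adjusted p = 0.00976), with 0.68 and no call without Ducts arrays C and D (adjusted p = 0.0806). The catalytic subunit Psmb8 instead was 4.88 ± 0.65, 5.07 ± 1.12 and 6.88 ± 0.13, and rose in yDucts against Acini (2.0 ± 0.46, adjusted p = 0.00154). The chaperone Pdia3 of the loading complex rose 8.80- and 6.41-fold, and the activator subunit Psme1 3.13- and 4.93-fold, in Ducts with no call under cyclic loess (adjusted p = 0.0654).

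Of 6 tested MHC regulators and partners, 2 were higher and 4 lower in each organoid group (0 and 3, and 1 and 3, under cyclic loess). Among all genes as deposited, 42.7% were higher and 33.1% lower in Ducts, and 43.6% and 32.6% in yDucts. Ciita, the master factor of class II, fell by 0.62 ± 0.22 and 0.67 ± 0.22 (adjusted p = 0.0222 and 0.0148) from an Acini level of 4.25 ± 0.52, calls that were lost under all 3 other scalings (-0.45 to -0.07). Rfx5, which binds MHC promoters, rose by 1.47 ± 0.28 and 2.24 ± 0.28 (adjusted p = 0.000401 and 1.13e-05), in Ducts with no call under cyclic loess (0.50, adjusted p = 0.126). Of 6 negative regulators, 2 were higher in each group, and 2 lower in Ducts and 3 in yDucts, whereas cyclic loess called none higher and 3 lower in each. Pias1, a repressor of STAT factors, was 0.67 ± 0.13 and 0.87 ± 0.13 higher (adjusted p = 0.000453 and 5.06e-05) as deposited, and its sign turned under quantile normalization and cyclic loess. Socs3, an inhibitor of JAK kinases, was 10.44 ± 0.24, 7.93 ± 0.08 and 8.85 ± 0.16, fell by 2.51 ± 0.15 and 1.59 ± 0.15 (adjusted p = 1.6e-08 and 8.58e-07), and was higher in yDucts than in Ducts (0.93 ± 0.15, adjusted p = 0.00391).

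**Figure D5:**
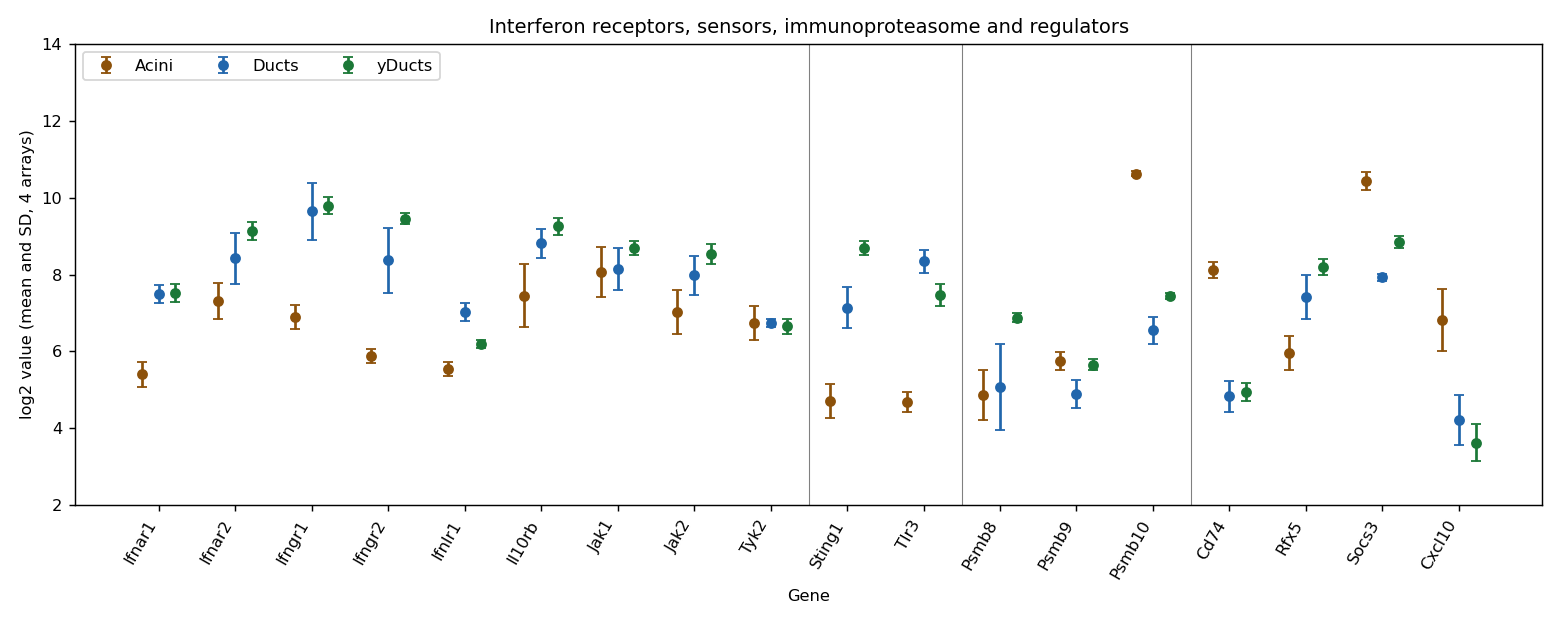
Mean log2 value and SD (4 arrays) of selected genes in Acini, Ducts and yDucts, from left to right receptors and kinases, sensors, immunoproteasome subunits, and regulators and targets. Ifngr1, Ifngr2, Ifnar1, Sting1 and Tlr3 lay higher in organoids, whereas Psmb10, Cd74, Socs3 and Cxcl10 lay higher in Acini.

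Irf2bp1, Irf2bp2, Irf2bpl and H2-Ke6 match the name rule but do other work, as cofactors of transcription and, for H2-Ke6, as an enzyme of fatty acid and steroid metabolism. Irf2bp2 was higher in both organoid groups (1.73 ± 0.18 and 1.54 ± 0.18, adjusted p = 2.25e-06 and 6.1e-06), and the others were called in neither as deposited, though after quantile normalization or cyclic loess Irf2bp1, Irf2bpl and H2-Ke6 were called lower in both groups.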

How the data were processed

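Total RNA of 12 samples (4 Acini, 4 Ducts, 4 yDucts) was hybridised to 1-colour Affymetrix arrays. The authors deposited log2 values made with RMA, per the labels, 1 value per probe set and array; the RMA version, the chip definition and whether the arrays were processed jointly are not stated in what was read here. Of 45101 probe sets, 34958 had 1 gene symbol in the platform annotation, 932 had several and 9211 had none, and the brightest probe set with 1 symbol stood for each gene. Genes above the 30th percentile of the array on at least 4 arrays were fitted with limma 3.58.1 (R 4.3.3), with a group-means model over all 12 arrays, 9 residual and 3.72 prior degrees of freedom, two-sided tests and Benjamini-Hochberg adjustment over 14991 genes. The script was tested on simulated data. Precision is limited by how many arrays there were.

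The genes and lists were chosen with earlier results of these data known. Named were a preset list, the 6 largest called increases and decreases per comparison without overlap, and the called differences between organoids. Up to 4 genes per role and up to 3 per pathway list were named as well. Other genes, such as Oas2, Oasl1, Oas1a, Oasl2, Gbp8, H2-Q10, Xaf1, Tyk2 and H2-DMa, were named after their values had been seen. The Y box was added after design, as was leaving out Ducts arrays B and C. The alternatives tried were 3 scalings, 2 filters, 2 choices of probe set, 4 other fits and the omission of arrays.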

Additional observations from a re-analysis of the deposited data

Results flagged for a closer look

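Among 219 groups of 4 arrays, 14 held an array far from the other 3 by Dixon's test, and chance alone marks about 1 in 20 groups. In yDucts, array B was the lowest for Ifitm3 (10.67, nearest array 12.61), Ifitm2 (10.17, nearest 11.04) and Rfx5 (7.89, nearest 8.26) and the highest for Irf2bp1 (8.28, nearest 8.07) and Irf2bpl (9.84, nearest 9.42). Array A of yDucts was the lowest for Oas1b (4.94, nearest 5.08) and the highest for Psme1 (10.39, nearest 10.27). In Ducts, array B stood out for Ifit1bl1 (7.81, nearest 3.13) and for Mx1 (4.56, nearest 2.72), array C for Ifi27l2b (5.88, nearest 4.72) and Trim30a (5.82, nearest 4.28), and array A for Socs3 (8.05, nearest 7.89). In Acini, array B read 7.86 for Ifi47 (nearest 7.26) and 4.65 for Stat2 (nearest 5.78).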

How the results depend on the processing

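Scaling moved the counts of genes higher than in Acini, to 3 of 74 in Ducts under quantile normalization and 3 under cyclic loess and to 6 in yDucts under cyclic loess, and the median difference, to -0.814 and -0.824 in Ducts and -0.773 and -0.694 in yDucts under these scalings and to -0.451 and -0.35 after centring. The median was -0.358 in yDucts with the 50th percentile as filter, -0.469 when all probe sets of a gene were averaged, and -0.875 in Ducts without Ducts arrays B and C. Between the organoid groups the genes called numbered 5 with the mean of all probe sets, 5 with only these groups in the fit, 35 with array weights (which called 3150 of all genes higher and 3033 lower), 11 without Ducts arrays A and B, and 5 without Ducts arrays B and C, where the median was 0.231. Leaving out 1 array at a time gave 7 to 10 higher and 33 to 39 lower in Ducts (median -0.691 to -0.577), 11 to 13 higher and 34 to 37 lower in yDucts (median -0.614 to -0.517), and 2 to 7 called between organoids (median 0.038 to 0.119).

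Signs turned under quantile normalization and cyclic loess, in this order, in Ducts for H2-Ke6 (-0.70 and -0.87), Irf2bp1 (-0.80 and -0.997), Irf3 (-0.19 and -0.44), Pias1 (-0.22 and -0.34) and Tapbp (-0.46 and -0.73), and in yDucts for H2-K1 (-0.012 and -0.40), H2-Ke6 (-0.53 and -0.70), Irf2bp1 (-0.77 and -0.96), Irf2bpl (-0.78 and -1.09), Irf3 (-0.019 and -0.26) and Pias1 (-0.032 and -0.14). Cyclic loess turned H2-K1 in Ducts (-0.82, and -0.42 with no call under quantile normalization) and Tapbp in yDucts (-0.22). The probe set of largest interquartile range turned H2-D1 (-2.24 in Ducts and -2.25 in yDucts) and Irf2bpl (1.08 in Ducts), and the mean of probe sets turned Stat2 (0.15 in Ducts). Without Ducts array B, A and B, or B and C, Ifit1bl1 was -0.89, -0.81 and -0.94 in Ducts (-0.89 to 0.76 over single arrays left out), and without B and C Irf7 was -1.06. The cause was not tested. Of 118 called differences of named genes, 81 kept direction and call under every alternative.

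The labels do not say whether arrays with the same letter belong together. Deviations of such arrays from their group means correlated at -0.350 to 0.134, which cannot decide whether the groups are paired. With the replicate block, 7 genes were higher and 38 lower in Ducts, 12 higher and 37 lower in yDucts, and 3 were called between the organoid groups, Ifitm3, H2-Q2 and Gbp2 (1.38, adjusted p = 0.0409), while Ifitm6 was lost (adjusted p = 0.0564).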
